A study of Homo sapiens with 6 samples.

Results

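Wide HuR sites are unbroken intervals of more than 200 nt on 1 strand in the authors' list of HuR sites with a binding score above 0. They were selected on measured width in the combined HuR list, which by its name covers all HuR samples. The intervals whose end minus start was over 200 nt, 13604 of 658853, met this rule. They were 2.06% of the combined sites and held 9.80% of the bases in the list, 4.08 Mb counted by strand. Since the sites were chosen by width in the combined list, width and combined score are given as descriptions without a test. No interval was left out by a further filter.

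HuR, the ELAVL1 protein, is an RNA-binding protein of the embryonic lethal abnormal vision family with RNA recognition motifs that contact U-rich and AU-rich stretches. It is known to bind introns and 3′ untranslated regions of many messenger RNAs and to influence their processing, stability and translation. Several HuR molecules can bind 1 RNA side by side.

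The study used HEK293, an established human embryonic kidney cell line, with no genetic change or drug treatment in its labels. Lysate was digested with micrococcal nuclease, an enzyme that leaves fragments of RNA that protein shields, and fragments were recovered in 3 immunoprecipitations with anti-HuR (3A2), a mouse antibody, and in 3 with normal mouse sera as negative control. The digests were pooled before they were divided, so the HuR replicates may share cells and digestion, and every SD below then covers technical spread only. Separate values for the negative controls were not used here. Per the labels' protocols, RNA fragments of 25 to 70 nt were cut from the gel, so every wide site exceeds the longest fragment that was selected.

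Each interval carries a strand, hg19 coordinates and the authors' LOD score. The sources used here do not state the scale of the score, and read depth is unknown. Replicate 1 had 186157 intervals, replicate 2 had 405048 and replicate 3 had 550681. Genes, transcript regions and sequences at the sites are left out, since the reference used here belongs to another build.

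The wide sites were mostly a little over the limit, with a long tail. Their median width was 260 nt, with quartiles at 225 and 330 nt and the 90th percentile at 435 nt. A width over 300 nt was found in 4440 sites (32.6%), over 500 nt in 794 (5.84%) and over 1000 nt in 26. The widest spanned 2690 nt. Interval ends lie on a grid of 5 nt, and 853 sites were 1 step over the limit, while 955 were exactly 200 nt wide and so outside it. The sites 1 step over the limit had a median LOD of 10.4 and an overlap with all 3 replicate lists at 87.1%, and the sites of 200 nt had 10.4 and 85.8%.

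**Figure D1:**
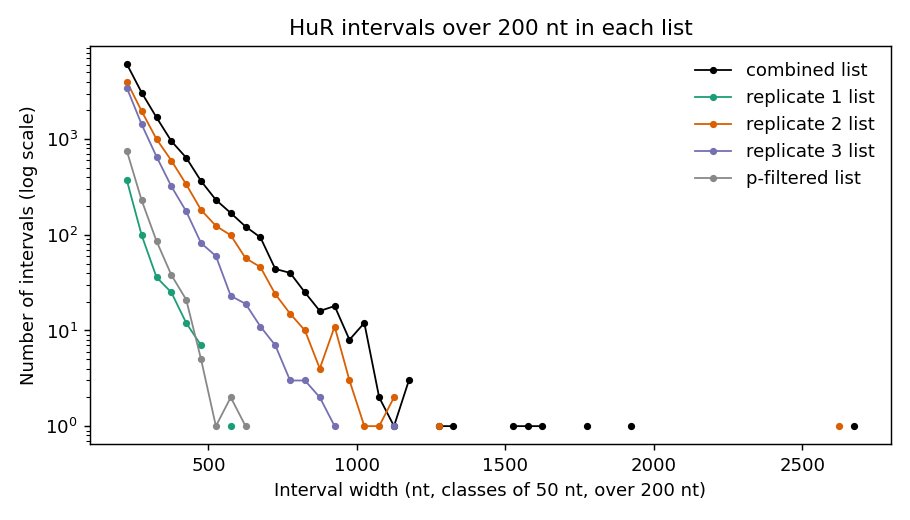
Number of intervals over 200 nt (vertical, log scale) by width in classes of 50 nt (horizontal) for the combined list, the 3 replicate lists and the p-filtered list. Replicate 2 has 8478 such intervals, more than replicate 3 with 6232, although its list is shorter, and replicate 1 has 552.

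The replicates differed strongly in how often they held intervals of this width. Intervals over 200 nt were 0.297% of replicate 1, 2.09% of replicate 2 and 1.13% of replicate 3, a mean of 1.17% ± 0.899 (SD, n = 3). Their longest intervals were 590, 2630 and 1130 nt in the same order. The median width of all intervals was nearly the same, at 45, 55 and 50 nt. Replicate 2 thus had more wide intervals than replicate 3 but fewer intervals in all.

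The widest HuR site lay at chr19:57766436-57769125 on the plus strand. Replicate 2 held it as 1 interval of 2630 nt, replicate 3 as 8 intervals covering 94.6% of it, and replicate 1 as 16 intervals covering 66.2%. Its combined LOD was 13.4, at percentile 93.7 of the combined list. Other combined sites began 30 nt upstream and 10 nt downstream of it, so calls went on close to the site on both sides.

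The site next in width was on the same chromosome and strand, at chr19:57805641-57807550, with 1910 nt and a LOD of 13.2. The widest interval there was 455 nt in replicate 1, 1115 nt in replicate 2 and 1130 nt in replicate 3, among 9, 2 and 3 intervals. Both of these sites lay in 1 megabase that also led in the share of wide sites, described below.

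At chr7:63809601-63811365 on the plus strand the 1765 nt of the combined site were broken up in every replicate, into 13, 6 and 10 intervals in replicates 1, 2 and 3. Their widest intervals were 135, 425 and 380 nt. No single replicate held a stretch close to the combined width there, and the combined LOD of 9.80 stood at percentile 79.3.

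At chr20:25427411-25429050 on the plus strand, 1640 nt wide, replicates 1, 2 and 3 covered 66.5%, 93.3% and 88.1% of the bases with 11, 5 and 4 intervals. At chr3:101311656-101313215 on the plus strand, 1560 nt wide, they covered 67.9%, 97.8% and 86.2% with 12, 2 and 8 intervals. Replicate 1 had the most intervals and covered the least in both places.

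Other sites among the 10 widest differed in score and strand. At chr21:38452096-38453420 on the plus strand, 1325 nt wide, the LOD of 17.4 was the highest among the 10 widest sites. At chr19:21308041-21309570 on the plus strand, 1530 nt wide, replicates 2 and 3 each covered 97.7% with 2 intervals. The widest site on the minus strand was chr5:167975471-167976730, with 1260 nt, and replicate 2 covered 86.9% of it with 6 intervals. Of the 10 widest sites, only this one was on the minus strand, and all 10 were found in every replicate.

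**Figure D2:**
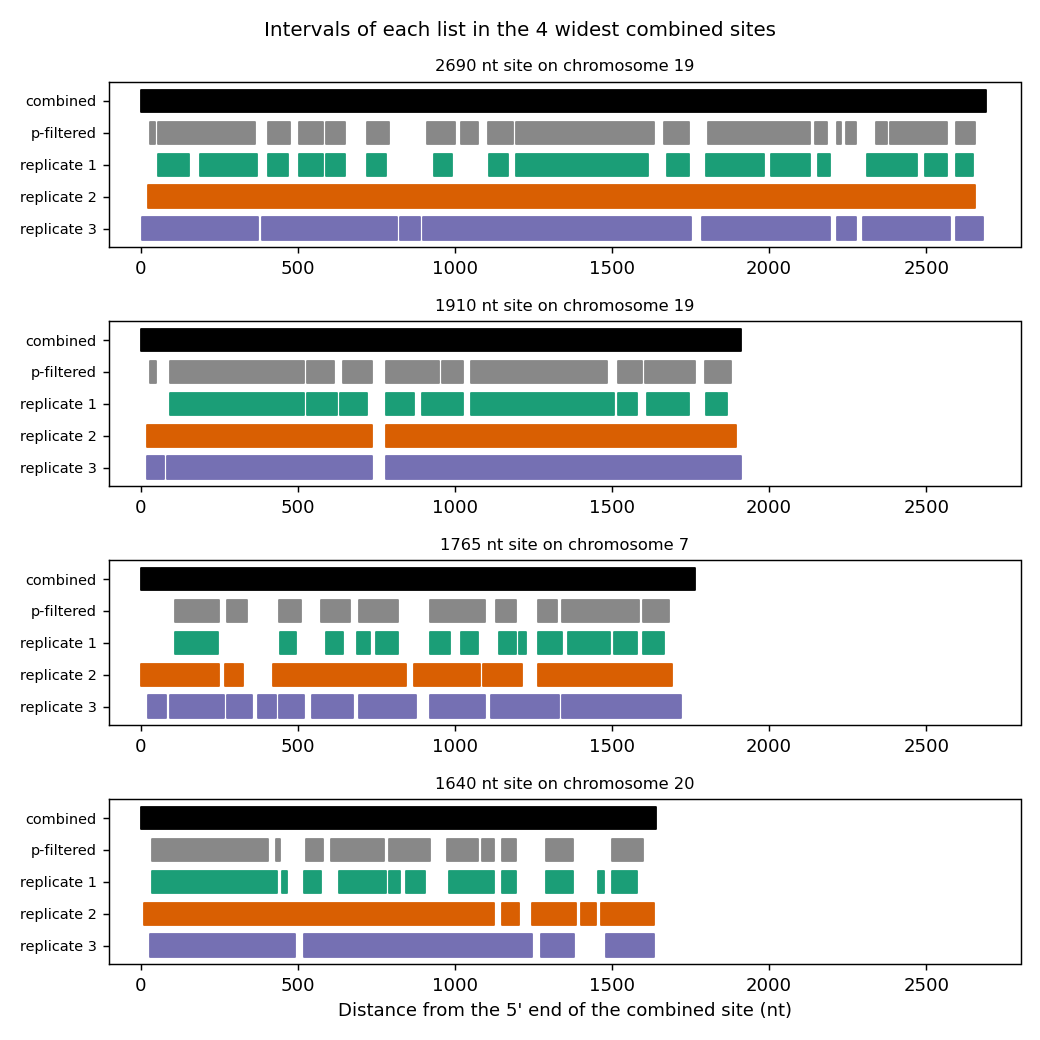
Intervals of each list (rows) within the 4 widest combined sites (panels), by distance in nt from the 5′ end of the site. Replicate 2 spans the 2690 nt site on chromosome 19 with 1 interval of 2630 nt, where the p-filtered list has 18 intervals and replicate 1 has 16.

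Most wide sites were touched by an interval of every replicate, but fewer were covered well in each. All 3 lists overlapped 12768 of them by at least 1 nt on the same strand, or 93.9% (95% Wilson interval 93.4 to 94.2, counting error only), against 21.4% of the combined sites of 200 nt or less and 22.9% of all combined sites. A longer interval has more room for an overlap, and the combined list by its name covers the same replicates. These shares are therefore not independent evidence of recurrence. When each list had to cover at least 50% of the site, 40.4% of wide sites were held by all 3. Replicates 2 and 3 without replicate 1 held 824 sites, with a median width of 230 nt and a widest of 415 nt. No wide site was without an interval in at least 1 replicate list.

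The exceptions outside replicate 1 were few. Replicate 2 had no interval in 9 wide sites and replicate 3 had none in 3. Of the sites missing from a list, 6 were held by replicate 3 alone, with a median LOD of 5.93. One of these, chr10:76122046-76122265 on the plus strand, was covered over its whole 220 nt by 1 interval of replicate 3. The site chr22:38886631-38886855 on the minus strand had an interval of 65 nt in replicate 2 alone and a combined LOD of 0.854, the second lowest among wide sites.

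The share of their bases that each replicate called was higher at wide sites than at shorter ones. Replicate 1 called 44.8% of the bases of wide sites against 19.4% of the bases of sites of 200 nt or less. In replicate 2 the values were 88.7% and 60.5%, and in replicate 3 they were 83.8% and 75.5%. The difference was 25.4, 28.1 and 8.30 percentage points, a mean of 20.6 ± 10.7 (SD, n = 3), and was positive in 3 of 3 replicates. With 3 replicates the smallest p of an exact two-sided sign-flip test is 0.25, so such a test could not decide on the difference. It is given as a description.

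The width classes showed that replicates 1 and 2 on the one hand and replicate 3 on the other followed width differently. In replicate 1, 39.3% of the bases were called at sites over 200 and up to 250 nt and 62.6% at sites over 1000 nt. In replicate 2 these values were 86.2% and 94.2%. Replicate 3 was level over the classes from 100 to 1000 nt, between 83.0% and 84.1%, and reached 89.1% above 1000 nt, where only 26 sites lay.

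**Figure D3:**
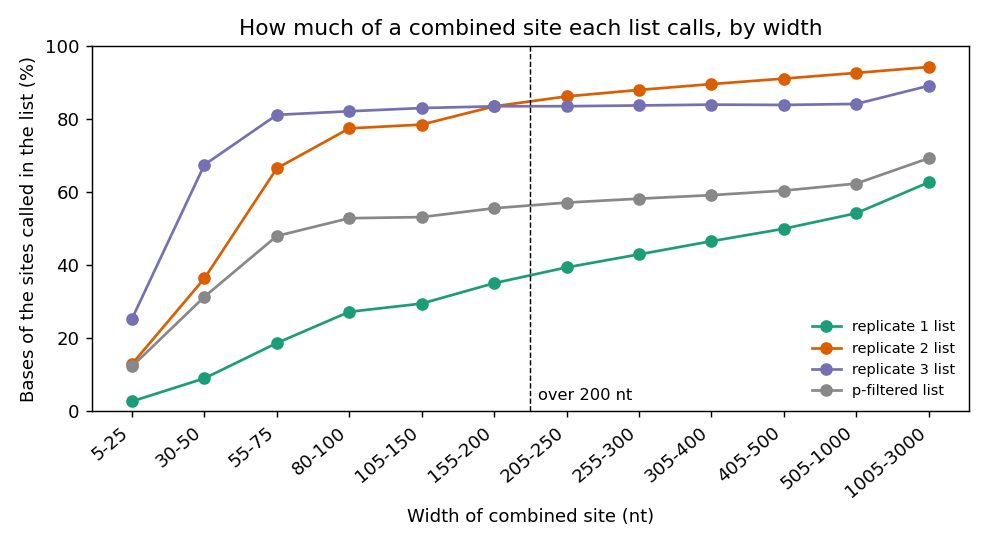
Share of the bases of combined sites called in each list (vertical, %) by the width of the combined site in nt (horizontal), with classes right of the dashed line holding the wide sites. Replicate 1 climbs from 39.3% to 62.6% across the classes of wide sites, while replicate 3 stays between 83.0% and 84.1% from 100 to 1000 nt.

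Counted base by base, 43.5% of the sequence in wide sites was called in all 3 replicates, 34.9% in 2, 16.9% in 1 and 4.70% in none. The last part, 0.192 Mb, was in the combined list but in no replicate list. Every base of the site was called at 2187 wide sites in replicate 2 (16.1%), at 828 in replicate 3 (6.09%) and at 0 in replicate 1.

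Replicates 1 and 3 had more than 1 interval in most wide sites, at 60.4% and 54.1% of them, and replicate 2 at 38.4%. The mean number of intervals per wide site was 1.84 in replicate 1, 1.45 in replicate 2 and 1.73 in replicate 3, a mean of 1.67 ± 0.198 (SD, n = 3). A single interval was found at 33.5%, 61.6% and 45.8% of wide sites, and 3 or more at 20.4%, 6.25% and 14.3%, in the same order. The median full width of the widest overlapping interval per site was 75 nt in replicate 1, 215 nt in replicate 2 and 195 nt in replicate 3. Replicate 1 thus showed a few short islands where replicate 2 mostly showed 1 long interval.

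A wide combined site was often not wide in any single replicate. An interval over 200 nt overlapped 545 wide sites in replicate 1 (4.01%), 8156 in replicate 2 (60.0%) and 6081 in replicate 3 (44.7%). Its full width was counted, and it may reach beyond the site. All 3 replicates had such an interval at 521 sites, which had a median width of 400 nt and a median LOD of 13.3. Replicates 2 and 3 had one at 4022 sites (29.6%), replicate 2 alone at 3591 (26.4%) and replicate 3 alone at 1537 (11.3%). At 3909 sites (28.7%) no replicate had an interval over 200 nt, and these sites had a median width of 230 nt and a median LOD of 8.87. The widest of them reached 705 nt. The widest replicate interval was in replicate 2 alone at 65.2% of wide sites, in replicate 3 alone at 29.9% and in replicate 1 alone at 12 sites.

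Along a wide site, calls were level in the middle and fell at both ends. Each site was divided from 5′ to 3′ into 20 parts of equal length. Over the 10 middle parts replicate 2 called between 92.1% and 93.1% of the bases, replicate 3 between 88.0% and 89.1%, and replicate 1 between 49.5% and 52.1%. In replicate 1 the highest share, 53.7%, lay just outside them, in the fifth part.

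The ends were not alike between replicates. In the part at the 5′ end replicate 2 called 69.2% and replicate 3 called 44.9%, while in the part at the 3′ end they called 61.4% and 59.8%. Replicate 2 was thus higher at its 5′ than at its 3′ end, and replicate 3 was higher at its 3′ than at its 5′ end, while replicate 2 called more than replicate 3 at both ends. At the 5′ end the strands gave like values, with 69.1% and 69.3% at the 5′ end in replicate 2 on the plus and minus strands, and 45.0% and 44.8% in replicate 3. Sites over 100 and up to 200 nt had 60.9% and 44.8% at the 5′ and 3′ ends in replicate 2 and 37.5% and 57.2% in replicate 3. Within each of these replicates the higher end was the same as at wide sites, but at the 3′ end of these narrower sites replicate 3 called more than replicate 2.

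**Figure D4:**
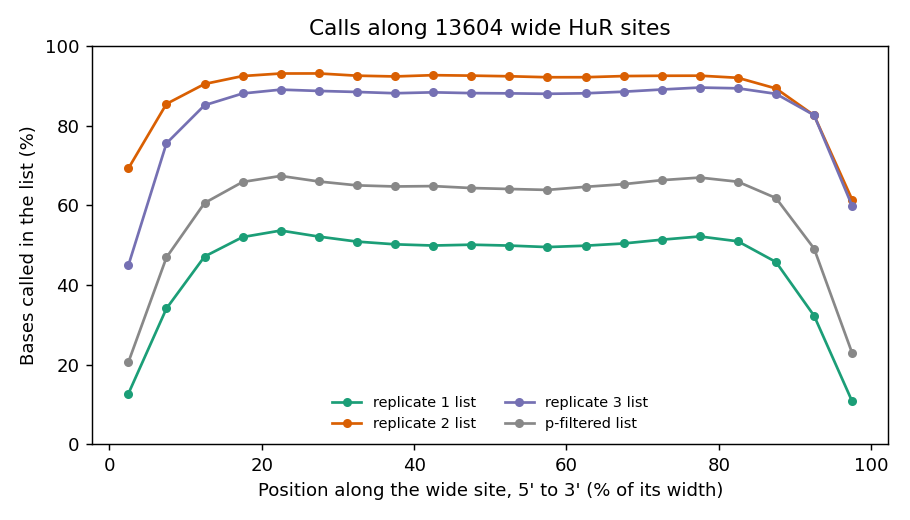
Share of bases called in each list (vertical, %) in 20 equal parts of the wide sites from the 5′ end (left) to the 3′ end (right), over all wide sites. The lists are level in the middle and low at the ends, and at the 5′ end replicate 2 is at 69.2% and replicate 3 at 44.9%.

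Most combined scores of wide sites were above the middle of the list. The median LOD of wide sites was 10.6 (quartiles 8.35 and 12.8), against 6.38 (4.45 and 9.02) for sites of 200 nt or less. Of the wide sites, 89.6% scored above 6.46, the median of all combined sites. The top 1% of combined sites, with a LOD above 17.5, held 336 wide sites, or 2.47% of them against 1% of all combined sites, and the highest LOD was 25.5 at a wide site and 30.4 at a shorter one. Among wide sites alone, width and LOD were hardly related, with a Spearman coefficient of 0.06 across sites that share their libraries. Among the narrowest sites the median LOD rose with width, and the rise was already small between 100 nt and the limit. It was 3.65 at sites of up to 25 nt and 7.84 over 50 and up to 75 nt. It was 9.43 over 75 and up to 100 nt and 9.55 over 100 and up to 150 nt. It was 10.2 over 150 and up to 200 nt and 10.4 over 200 and up to 250 nt.

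The 10 highest-scoring wide sites were all under 300 nt wide. The highest LOD, 25.5, was at chr6:149825901-149826185 on the minus strand, 285 nt wide. Replicates 1, 2 and 3 each held it as 1 interval, covering 86.0%, 100% and 96.5% of it, and the interval scores stood at percentiles 96.84, 99.90 and 99.97 of their lists. At chr1:243287726-243287930 on the minus strand, 1 step over the limit in width, the LOD was 24.9 and each replicate again had 1 interval. Among the sites of highest score, chr16:1794756-1794990 on the plus strand, with a LOD of 24.1, was the most remote from others, with gaps of 22515 nt to its 5′ neighbour and 5525 nt to its 3′ neighbour. The site chr10:3818746-3818960 on the minus strand, with a LOD of 23.5, had no combined site for 329465 nt on its 3′ side.

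Within each replicate list, intervals inside wide sites ranked above the others. Their median percentile by score was 58.1, 72.4 and 63.0 in replicates 1, 2 and 3 (mean 64.5 ± 7.27, SD, n = 3), against 49.0, 49.0 and 49.6 elsewhere. Their median widths were 60, 180 and 125 nt, and those of the other intervals 45, 55 and 50 nt. By its name the combined list covers the same replicates. The ranks are therefore not independent of the choice by width and are given as a description. Across the 12768 wide sites in all 3 lists, the best interval scores of replicates 1 and 2 had a Spearman coefficient of 0.51, those of replicates 1 and 3 one of 0.48 and those of replicates 2 and 3 one of 0.64. These describe agreement across sites that come from 1 set of libraries.

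The authors' p-filtered list broke most wide sites into pieces. It held an interval in 13512 of them, or 99.3% (95% Wilson interval 99.2 to 99.4, counting error only), against 51.3% of the sites of 200 nt or less and 52.3% of all combined sites. This share rests on the same libraries as the width and is not independent of it. A longer site also has more room for a p-filtered interval. The share was already 89.9% at sites over 100 and up to 150 nt and 96.5% over 150 and up to 200 nt. A single p-filtered interval was left in 3462 wide sites (25.4%), 2 in 6321 (46.5%), 3 in 2631 (19.3%), 4 in 780 (5.73%) and at least 5 in 318 (2.34%). The share with 2 or more was 73.9% of wide sites. It was 38.3% at sites over 150 and up to 200 nt and 12.7% over 100 and up to 150 nt. A shorter site has less room for several intervals, so this share follows width. Only 24 wide sites kept both ends and all bases.

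The pieces were short beside the sites they came from. The 28893 p-filtered intervals inside wide sites had a median width of 70 nt, against 45 nt for p-filtered intervals elsewhere. The gaps between those of 1 wide site had a median of 35 nt and a largest of 335 nt. They held 58.8% of the bases of wide sites, against 43.9% for sites of 200 nt or less. A median of 25 nt was lost at the 5′ end and of 25 nt at the 3′ end. The p-filtered list kept only 1138 intervals over 200 nt, the widest of 620 nt, and 1107 wide sites held one.

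The p-filtered intervals of a wide site often differed in score from the site and from each other. Where a combined site kept its ends in the p-filtered list, the 2 lists gave the same LOD to within 0.01 at 97.5% of 59905 sites. Only 24 of these were wide, and 13 of the 24 were equal to within 0.01, with a largest difference of 0.57. Scores of the 2 lists are set side by side here with that limit. At wide sites kept by the filter, the best p-filtered interval had a median LOD of 16.5 and scored above its enclosing site by a median of 5.37 (quartiles 3.37 and 7.75). At sites of 200 nt or less the median excess was 0.85. The best interval scored above its enclosing site at 99.6% of wide sites and 89.2% of shorter ones. It is the highest of a mean of 2.12 intervals per wide site, taken after a filter. The size of the excess is therefore not comparable between wide and shorter sites. The part of the number of intervals in the excess was not tested. In the 10050 wide sites with 2 or more p-filtered intervals, the best and the poorest interval differed by a median of 6.72. The middle of the best interval had a median relative position of 0.51, where 0 is the 5′ end of the site and 1 its 3′ end. In the widest site of all, the best of 18 p-filtered intervals had a LOD of 26.0, against 13.4 for the site.

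The 92 wide sites with no p-filtered interval scored low, with a median LOD of 5.11 and a highest of 13.3. Of these, 20 overlapped all 3 replicate lists. The lowest LOD of a wide site was 0.821, at chr1:244871256-244871480 on the plus strand, where replicates 1 and 2 called 8.89% and 33.3% of the bases and replicate 3 none.

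Wide sites lay in crowded stretches and near each other. The median gap to the nearest combined site on the strand was 45 nt for wide sites and 165 nt for sites of 200 nt or less. A neighbour lay within 100 nt of 78.9% of wide sites and of 38.1% of the shorter sites. Within 5 kb to either side there was a median of 22 other same-strand sites around a wide site and of 13 around a shorter one. Gaps to the 5′ and the 3′ side of wide sites were similar, with medians of 85 and 80 nt. A gap of less than 10 nt between sites did not occur in the combined list, so a break of 10 nt is enough to divide a longer stretch.

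Another wide site lay within 1 kb on the same strand for 52.6% of wide sites, against 9.36% of shorter sites with a wide site that close. The median gap from a wide site to the next wide site was 840 nt, and from a shorter site to a wide one 34510 nt. Linked at 1 kb, the wide sites formed 8945 chains, of which 6445 were single sites and 267 had at least 5 members. The longest chain had 15 wide sites. At the other end, 9 wide sites had no combined site within 10 kb on their strand.

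Counted in 10-kb windows by strand, wide sites occupied 7685 windows, and 385 of these had at least 5. The window chr2:179370001-179380000 on the plus strand had 14 wide sites among 38 combined sites, together 5595 nt. The window chr1:173900001-173910000 on the minus strand also had 14, with 4230 nt and a widest site of only 395 nt. The window chr12:69660001-69670000 on the plus strand had 14 as well, with 4100 nt. At chr11:3380001-3390000 on the minus strand there were 13, with a median LOD of 13.2, and at chr18:45360001-45370000 on the minus strand there were 11, with a median LOD of 6.88. Among the 10 windows with the most wide sites the median LOD ranged from 6.88 to 14.6. The lowest was thus still above 6.46, the median of all combined sites.

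Wide sites became more frequent from the 5′ to the 3′ end of runs of sites. A run was a series of at least 10 combined sites on 1 strand with gaps of at most 5 kb, and was placed by position alone, so a run need not match 1 transcript. The 12734 runs had a median of 25 sites over 20.4 kb and held 13105 of the wide sites. Each run was divided by rank into 10 bins. In the bin at the 5′ end 0.841% were wide (499 of 59307). The share was 1.90% in the fifth bin, 3.92% in the ninth and 4.75% in the last (2887 of 60826), and it was higher in each bin than in the one before.

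On a scale from 0 at the 5′ end to 1 at the 3′ end of the run, wide sites had a mean position of 0.64 and the shorter sites 0.50. The plus and minus strands gave the same value of 0.64 for wide sites. When runs and wide intervals were taken from each replicate's own list, the mean position of wide intervals was 0.59, 0.64 and 0.62 in replicates 1, 2 and 3 (mean 0.62 ± 0.0284, SD, n = 3), and that of the others 0.50 in each. All 3 replicates lay above 0.5, which with n = 3 cannot pass an exact sign-flip test. In replicate 1, which had 458 such intervals in runs, the share peaked at 0.720% in the eighth bin and was 0.519% in the last.

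In nucleotides, wide sites in runs lay a median of 7.08 kb from the 3′ end of the run and 22.8 kb from its 5′ end, against 17.3 and 17.9 kb for shorter sites. Within 2 kb of the 3′ end of a run lay 20.6% of wide sites and 9.02% of shorter ones, and within 2 kb of the 5′ end 5.66% and 8.58%. A wide site was present in 4806 runs (37.7%), and in 72.1% of these the wide sites lay on average in the 3′ part. The run with the most held 25.

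Spacing and score moved along the runs too. The median gap to the nearest site was 215 nt in the first bin, 105 nt in the ninth and 140 nt in the last. The median LOD of wide sites was 10.5 in the first bin, 11.4 in the fourth and 10.2 in the last. That of sites of 200 nt or less was 6.51 in the first, 6.75 in the fifth and 6.08 in the last. The part of these in the trend was not tested. With wide sites that had a neighbour within 100 nt left out, 2678 remained, with a mean position of 0.58 and a share of 0.281% in the first bin and 0.859% in the last.

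**Figure D5:**
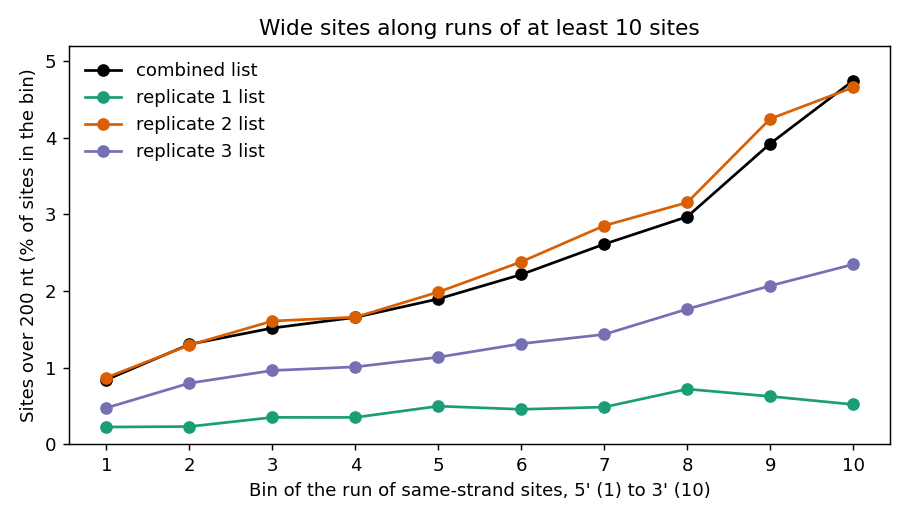
Share of sites over 200 nt (vertical, % of the sites in the bin) by bin of the run of same-strand sites from 5′ (1) to 3′ (10), for the combined list and for each replicate's own list. The combined list goes up in every bin, from 0.841% to 4.75%, and replicate 1 peaks in the eighth.

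The strands carried wide sites almost equally. The plus strand had 7087, or 52.1% (95% Wilson interval 51.3 to 52.9, counting error only, with close neighbours counted as independent), against 50.8% of shorter sites. Another combined site on the opposite strand overlapped 447 wide sites (3.29%) by at least 1 nt, against 0.837% of shorter sites. Per base, 0.360% of the sequence of wide sites and 0.310% of that of shorter sites was also in an opposite-strand site. Only 4 wide sites overlapped a wide site on the other strand.

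The share of sites that were wide varied between chromosomes. Among the numbered chromosomes it was highest on chromosome 19, at 2.68% (468 of 17463, 95% Wilson interval 2.45 to 2.93), and lowest on chromosome 22, at 1.43% (127 of 8864, 1.21 to 1.70). Chromosome X had 2.73%. In the replicates' own lists chromosome 19 was first of 22 in replicates 2 and 3, at 2.59% and 2.06%, and ninth in replicate 1, at 0.318% or 20 intervals. Chromosome 22 was last in replicates 2 and 3 and next to last in replicate 1. The intervals cover counting error only, and gene content and transcript abundance were not corrected for.

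The share was also counted in bins of 1 Mb, where small numbers of sites give wide counting error. Over 1351 bins of 1 Mb with at least 200 combined sites, the median share of wide sites was 1.89%. The bin chr19:57000001-58000000 had the highest share, 10.4% (52 of 500), and chr19:24000001-25000000 followed with 8.59% (31 of 361). The bins chr5:148000001-149000000 and chr2:75000001-76000000 had 8.41% and 8.21%, and chrX:73000001-74000000 had the largest number among the 10 leading bins, 59 of 785 (7.52%).

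Chromosome Y and the mitochondrial genome had few wide sites. The only mitochondrial one, chrM:14451-14675 on the minus strand, had a LOD of 7.33, and replicate 2 called all of its 225 nt, against 71.1% in replicate 1 and 77.8% in replicate 3. By list coordinates, chromosome Y had 2 among 453 combined sites. At chrY:59274676-59274955 on the plus strand all 3 replicates called bases, with the smallest share, 53.6%, in replicate 1, and the combined LOD was 9.74. The lists cannot tell whether such reads came from chromosome Y or from like sequence on another chromosome, so these sites do not show transcripts of chromosome Y.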

How the data were processed

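Coordinates are 1-based on hg19. The submitters' processing notes name TopHat2 2.0.8, cutadapt 1.0 and the build hg19 (GRCh37). The deposited lists give the authors' LOD score per interval. The sources used here do not say how intervals and scores were made or how the p limit of 0.05, known from the list's name, was applied. All interval ends lie on a grid of 5 nt. Scores of different replicates were compared as ranks within a list.

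Overlaps were counted on the same strand, from 1 nt, with Python 3.11.15 and its packages scipy 1.17.1, pandas 2.3.3 and numpy 2.4.6, and the code was tested on simulated data. An interval counted as inside a site from 1 nt of overlap, and its width includes any part beyond the site. Depth per library is unknown, so no interval that needs it is given. Wilson intervals are at 95%.

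The members, lists and comparisons were chosen with earlier results of these data known, and the position along runs, the 1-Mb bins, the parts of a site and the score differences were chosen after seeing the data. Named sites are drawn from the 10 widest, the 10 with the highest LOD and the 10 windows with the most wide sites. Sites named beside these were chosen after their values were seen. Transcript regions, base composition and gene lists were planned and not run, since the reference used here belongs to another build.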

Additional observations from a re-analysis of the deposited data

How the results depend on the processing

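For 9 results 42 alternative values were computed, and 23 of them moved past a bound, 19 did not, and 0 changed direction. The bound was 1.5 times for the number of sites, the spread between replicates where there was one, and otherwise a 95% Wilson interval, which is narrow at this number of sites. Over 150, 250 and 300 nt the number of sites was 28594, 7503 and 4440, and in the p-filtered list it was 1138. The share of sites in all 3 replicates was 40.4% when each list had to cover at least 50% of the site, 93.2% and 90.9% at replicate LOD above 1 and 2, and 86.6% and 99.01% for sites over 150 and 300 nt. Without each replicate in turn it ranged from 93.9% to 99.9%, the highest without replicate 1. The bases covered ranged from 64.3% to 86.2% and the intervals per site from 1.59 to 1.78. For sites over 150 and 300 nt, 2 or more p-filtered intervals were found in 55.2% and 91.6%, a LOD above the combined median in 88.1% and 92.2%, another such site within 1 kb in 58.1% and 38.3%, and the mean position in runs was 0.61 and 0.69. Of the p-filtered intervals inside wide sites, 71.0% scored above the median of their own list. Another wide site lay within 500 nt of 41.3% and within 5 kb of 69.6%. With runs ended at gaps over 2 kb the mean position was 0.59, and 0.58 without wide sites that had a neighbour within 100 nt. The alternatives for position in runs were chosen after seeing the data. For these moves the cause was not tested. Depth is unknown, so a missing interval does not show that a library had no reads there. No paired analysis was possible because separate values of the negative controls were not used here.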
